A study of Mus musculus with 23 samples.

Results

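Cytosolic RNA sensors and the proteins that pass on their signal were followed in the hippocampus of mice of the cross labelled FCG (4 core genotypes), in which the sex chromosomes and the gonads vary independently. The set is 8 genes chosen by symbol, all 8 found among the 13766 genes measured: the sensors Ddx58, Ifih1 and Dhx58, the ubiquitin ligase Trim25, the adaptor Mavs, the kinase Tbk1, the transcription factor Irf3 and the RNA-activated kinase Eif2ak2. In this cross, carried on a C57Bl/6J background and revived from frozen embryos, the testis-determining gene Sry is moved from the Y chromosome to an autosome, so that XX and XY animals can each have ovaries or testes. Hippocampi came from 5 XX mice with ovaries, called XXF, and from 6 each of XX mice with testes (XXM), XY mice bearing ovaries (XYF) and XY mice bearing testes (XYM), with 1 library per animal and 23 in all. All animals were about 12 months old, untreated as far as the labels say, and caged by the look of their genitalia, so that gonad and cage type cannot be told apart; every animal with testes carries the Sry transgene.

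RIG-I-like receptors are helicases in the cytosol that bind double-stranded or uncapped RNA, typically from viruses. RIG-I (from Ddx58) and MDA5 (from Ifih1) then engage MAVS on mitochondria, which activates TBK1 and, through it, IRF3, the factor that switches on type I interferon genes. Interferon in turn raises the transcription of Ddx58, Ifih1, Dhx58, Trim25 and Eif2ak2, called interferon-inducible here, while Mavs, Tbk1 and Irf3 are made largely without it; in brain, microglia and other glia as well as neurons carry parts of this pathway.

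Totals of estimated counts ran from 10257790 to 36078235 per library. Xist, which silences 1 X in XX cells, was at 936.3 CPM (counts scaled to the library total) or more in every XX library, and the Y-linked Ddx3y was at 49.2 CPM or more in every XY library and at 0.437 CPM or less in the XX libraries. The library labelled XYF replicate 4 had Xist at 94.1 CPM, and the XYM libraries at most 2.86 CPM. Values without that library are given for Ddx58, Ifih1, Trim25, Eif2ak2 and the interferon genes called. Replicate numbers are names only. A pair of X-linked genes, chosen after their values were seen, were higher in XY animals although an XY mouse has a single X: Msl3, a chromatin regulator, by 0.95 ± 0.05 and Tlr7, an endosomal single-stranded RNA sensor upstream of interferon, by 1.07 ± 0.11 (log2 fold change ± approximate SE for the mean of XYF and XYM minus that of XXF and XXM, the sex chromosome effect; edgeR quasi-likelihood test, adjusted p = 5.08e-14 and 2.79e-07). The XY groups of these animals therefore differed from the XX groups in the level of an RNA sensor outside the set. Tlr7 was higher by 1.25 ± 0.16 in XYF minus XXF and by 0.88 ± 0.14 in XYM minus XXM (edgeR adjusted p = 2.58e-05 and 0.00153). In XYM minus XYF it differed by -0.19 ± 0.14 (edgeR adjusted p = 0.704). Whether Tlr7 has a part in the results below was not tested. Hippocampal cell markers were present: all 8 neuron, 8 astrocyte, 7 oligodendrocyte, 8 endothelial and 12 microglia markers were above 0 in every library.

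The interferon-stimulated response element, a DNA site common in the promoters of interferon-inducible genes, was searched as GAAA, any 2 bases and GAAA again, or as TTTC, any 2 bases and TTTC when read from the other strand, in RefSeq promoter windows of GRCm38.p6, which reach from 250 bases before to 50 after a gene's start. Of the 8 genes, 7 had such a window and Dhx58 had none. A match lay in 3 of the 7 windows, those of Ddx58, Ifih1 and Eif2ak2, all 3 interferon-inducible, and all just downstream of the start. These stretches are printed with the match in capitals because the match is what these 3 promoters share and the other 4 lack; each is read along the gene's own strand, the minus strand for all 3. The Ddx58 stretch is chr4:40239804-40239833 with the match at bases 3 to 12 after the start, the Ifih1 stretch is chr2:62646206-62646233 with the match at bases 33 to 42, and the Eif2ak2 stretch is chr17:78882535-78882564 with the match at bases 19 to 28.
Ddx58: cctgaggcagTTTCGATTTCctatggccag
Ifih1: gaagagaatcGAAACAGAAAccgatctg
Eif2ak2: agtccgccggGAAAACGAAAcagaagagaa
The same letters occurred in 3.44% of all 32851 windows. Counted by gene, 3.99% of 27025 genes had a window with a match. Of the genes with a window on a list of type I interferon signalling and target genes, 41.2% (7 of 17) did. The windows of Trim25, Mavs, Tbk1 and Irf3 held no match, which says only that these letters were not in those bases. For comparison, the last 100 bases before the start are shown for Trim25 (chr11:88999303-88999402, plus strand), an inducible gene whose window holds no match, and for Tbk1 (chr10:121586795-121586894, minus strand), the most abundant member and the one with the least spread between libraries.
Trim25: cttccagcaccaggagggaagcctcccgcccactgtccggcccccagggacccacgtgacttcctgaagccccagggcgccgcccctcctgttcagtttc
Tbk1: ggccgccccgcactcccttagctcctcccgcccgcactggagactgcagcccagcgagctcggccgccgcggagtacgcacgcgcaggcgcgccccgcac
The 250 upstream bases of Tbk1 held 31 CpG dinucleotides and a GC content of 68.4%, against 12 and 63.2% for Trim25 and 12 and 53.6% for Ddx58.

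The 8 genes were expressed at low to middling levels. Per kilobase of exon, the mean level was highest for Tbk1 at 15.9 CPM per kb, followed by Irf3 at 4.96, Mavs at 2.93 and Eif2ak2 at 2.57 CPM per kb. Trim25 stood at 1.73 CPM per kb, and the sensors were the lowest, Ddx58 at 1.16, Ifih1 at 0.703 and Dhx58 at 0.542 CPM per kb. By mean CPM, 70.0% of all measured genes lay below Tbk1 but only 3.68% below Dhx58, whose count in a library was 19.4 to 72.8. The coefficient of variation of CPM over the 23 libraries ran the other way: 5.15% for Tbk1, 13.8% for Irf3, 15.96% for Mavs, 16.8% for Eif2ak2, 22.4% for Trim25, 26.5% for Ddx58, 27.6% for Dhx58 and 30.0% for Ifih1. The 3 genes made largely without interferon had the 3 smallest relative spreads and the 5 inducible genes the 5 largest. Mavs and Eif2ak2 were close, however, and Dhx58 had the lowest counts. These spreads include the differences between groups, and the same 3 genes also had the 3 highest levels per kb. Whether spread goes with level or with inducibility was not tested.

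XY animals with ovaries had the highest mean level of all 5 inducible genes, and also of Tbk1. The margin over the next group was small for Tbk1, for Dhx58 (2.09 against 1.91 CPM in XXF) and for Eif2ak2 (14.50 against 13.48 CPM in XYM). How many of all genes had their highest mean in XYF was not counted. Ddx58 was the one member that passed the test across all genes: it rose 1.68-fold in XYF against XXF. Ifih1 and Trim25 were 1.53-fold and 1.41-fold higher in the same comparison and did not pass. Mavs, Tbk1 and Irf3 had log2 fold changes of 0.00 ± 0.13, 0.07 ± 0.05 and -0.10 ± 0.11 between XYF and XXF (approximate SE). The plot of levels by library shows the 8 genes in the 4 groups.

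**Figure D1:**
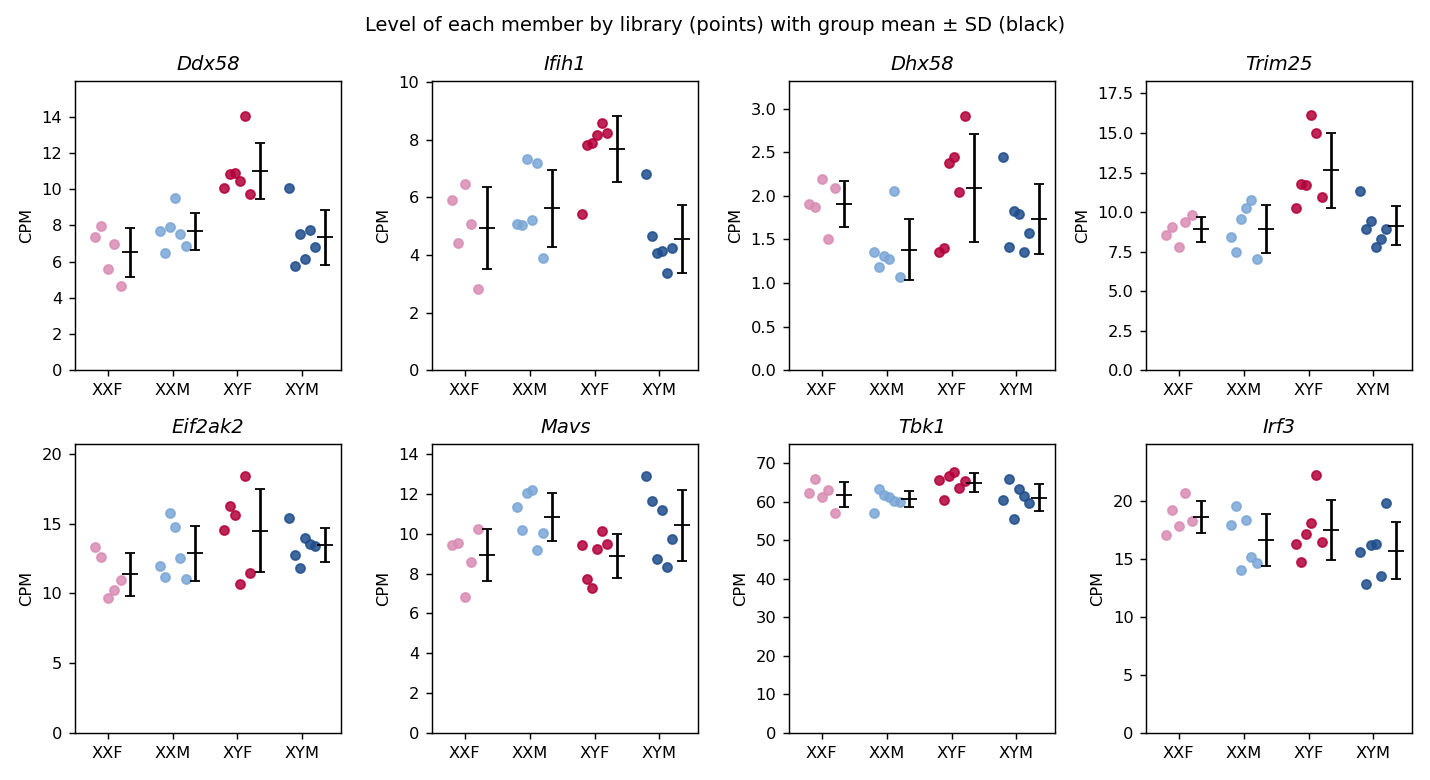
Level of each gene in CPM (vertical axes, starting at 0) in the XXF, XXM, XYF and XYM libraries; coloured points are libraries and black bars the group mean ± SD. The 6 XYF libraries lie above all XXF libraries for Ddx58 and Trim25, Mavs is higher on average in both groups with testes, and Tbk1 stays between 55.4 and 67.6 CPM.

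Ddx58 (gene ID 230073; GRCm38, chr4:40203777-40239825, minus strand) encodes RIG-I, which recognises short double-stranded RNA with a 5′ triphosphate. Its level in the 5 XXF libraries was 7.33, 7.97, 5.59, 6.98 and 4.67 CPM. The 6 XYF libraries had a lowest, median and highest value of 9.73, 10.7 and 14.05 CPM, the XXM libraries of 6.48, 7.62 and 9.49 CPM, and the XYM libraries of 5.76, 7.18 and 10.05 CPM. All 6 XYF libraries were above every XXF library, which held for 0.552% of all genes. Of the 6 XYM libraries, 5 were below every XYF library. The other, XYM replicate 1 at 10.05 CPM, sat inside the XYF range. The groups, from the lowest mean, were XXF, XYM, XXM and XYF, and the first 3 overlapped.

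Between XYF and XXF, Ddx58 changed by 0.75 ± 0.15 on the log2 scale (edgeR quasi-likelihood test, Benjamini-Hochberg adjusted p = 0.0126 over all genes; exact permutation test of log2 CPM, two-sided, p = 0.00216, the smallest that 462 assignments allow in this pair of groups). It was 1 of 8 members called, where 0.291% of all genes were called in this comparison, 0.262% as higher; at an unadjusted p under 0.05, 4 of 8 were higher (Ddx58, Ifih1, Trim25 and Eif2ak2), against 2.84% of all genes. Against XYM, Ddx58 differed by -0.58 ± 0.14 (XYM minus XYF, edgeR adjusted p = 0.107; exact permutation p = 0.00433), and in the groups with testes by -0.06 ± 0.14 (XYM minus XXM, edgeR adjusted p = 0.987). The call in XYF against XXF was lost without XXF replicate 3 (0.70, edgeR adjusted p = 0.0605) and without XXF replicate 5 (0.66, adjusted p = 0.0612), and held without XYF replicate 4 (0.77, adjusted p = 0.0188). The difference between XYM and XYF was called without XYM replicate 1 (-0.69, edgeR adjusted p = 0.0100) and was -0.59 without XYF replicate 4 (adjusted p = 0.162).

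Ifih1 (gene ID 71586; chr2:62595793-62646255, minus strand) encodes MDA5, which binds long double-stranded RNA. Its XXF libraries read 5.91, 4.43, 6.47, 5.09 and 2.82 CPM. The XYF libraries had a lowest, median and highest value of 5.43, 8.03 and 8.58 CPM, the XXM libraries of 3.88, 5.15 and 7.33 CPM, and the XYM libraries of 3.39, 4.20 and 6.83 CPM. Of the 6 XYF libraries, 5 lay above every other library; XYF replicate 1 at 5.43 CPM fell within the other groups. XYF and XXF differed by 0.61 ± 0.20 (edgeR adjusted p = 0.483; exact permutation p = 0.00866) and XYM and XYF by -0.74 ± 0.19 (XYM minus XYF, edgeR adjusted p = 0.147; exact permutation p = 0.00433). Neither passed across all genes; without XYM replicate 1 the second was called at -0.90 (edgeR adjusted p = 0.0158). Without XYF replicate 4 they were 0.59 and -0.72 (edgeR adjusted p = 0.617 and 0.287). XYM, XXF and XXM, the lower 3 means in that order, overlapped.

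Dhx58 (gene ID 80861; chr11:100694884-100704271, minus strand) encodes LGP2, a RIG-I relative without signalling domains that tunes the other sensors. Its XXF libraries read 1.91, 1.87, 2.19, 1.51 and 2.09 CPM. The XXM libraries had a lowest, median and highest value of 1.07, 1.29 and 2.06 CPM, the XYF libraries of 1.36, 2.21 and 2.92 CPM, and the XYM libraries of 1.35, 1.68 and 2.45 CPM. All 4 groups overlapped, and the order from the lowest mean was XXM, XYM, XXF and XYF. Between XYF and XXF, Dhx58 differed by 0.13 ± 0.22 (edgeR adjusted p = 0.997). The XXM libraries were lower than the XXF libraries by a log2 difference of -0.47 ± 0.22 (edgeR unadjusted p = 0.0414, adjusted p = 0.633; exact permutation p = 0.0195), with 5 of 6 at or under 1.36 CPM and XXM replicate 5 at 2.06 CPM. Its exons overlap those of Dhx58os on the opposite strand over 141 bases (4.31% of its exon length), and whether counting used strand was not given in the sources used here.

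Trim25 (gene ID 217069; chr11:88999403-89020293, plus strand) encodes a ubiquitin ligase that promotes RIG-I signalling and is itself interferon-inducible. Its XXF libraries read 8.53, 9.05, 7.79, 9.39 and 9.82 CPM. The XYF libraries had a lowest, median and highest value of 10.3, 11.7 and 16.2 CPM, the XXM libraries of 7.06, 8.99 and 10.8 CPM, and the XYM libraries of 7.82, 8.94 and 11.4 CPM. As with Ddx58, every XYF library lay above every XXF library. These 2 members, of 8, had XYF above XXF without overlap, which held for 0.552% of all genes. The difference for Trim25 was 0.50 ± 0.13 between XYF and XXF (edgeR adjusted p = 0.188; exact permutation p = 0.00433) and -0.46 ± 0.12 for XYM minus XYF (edgeR adjusted p = 0.209; exact permutation p = 0.00649). Without XYF replicate 4, the highest Trim25 library at 16.2 CPM, the first was 0.42 and the second -0.38 (edgeR adjusted p = 0.428 and 0.568). The means of XXF, XXM and XYM, in that order, lay between 8.92 and 9.13 CPM.

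Eif2ak2 (gene ID 19106; chr17:78852550-78882572, minus strand) encodes PKR, the kinase that halts translation by phosphorylating eIF2alpha when it binds double-stranded RNA. Its XXF libraries read 13.3, 12.6, 9.65, 10.3 and 10.95 CPM. The XYF libraries had a lowest, median and highest value of 10.7, 15.1 and 18.4 CPM, the XXM libraries of 11.03, 12.2 and 15.8 CPM, and the XYM libraries of 11.8, 13.5 and 15.4 CPM. Of the 6 XYF libraries, 4 were above all XXF libraries, and XYF replicates 4 and 6, at 10.7 and 11.5 CPM, were not. The difference was 0.36 ± 0.13 between XYF and XXF (edgeR adjusted p = 0.688; exact permutation p = 0.0671) and -0.10 ± 0.12 for XYM minus XYF (edgeR adjusted p = 0.819). Without XYF replicate 4 the first was 0.43 (edgeR adjusted p = 0.362). Its neighbours in the order of means, XXF, XXM, XYM and XYF, all overlapped, and 3.40% of its exon bases overlap a gene model on the opposite strand, Gm26637.

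Mavs (gene ID 228607; chr2:131234063-131248024, plus strand) encodes the mitochondrial adaptor on which RIG-I and MDA5 converge. Its XXF libraries read 9.46, 9.54, 6.85, 8.57 and 10.2 CPM. The XYF libraries had a lowest, median and highest value of 7.30, 9.35 and 10.2 CPM, the XXM libraries of 9.19, 10.8 and 12.2 CPM, and the XYM libraries of 8.33, 10.5 and 12.9 CPM. Mavs was therefore ordered by gonad, with both groups with testes above both groups with ovaries in mean and with overlapping ranges. The difference by gonad (mean of XXM and XYM minus mean of XXF and XYF) was 0.26 ± 0.09 (edgeR unadjusted p = 0.00604, adjusted p = 0.209; exact permutation p = 0.00694). The difference by sex chromosomes (mean of XYF and XYM minus mean of XXF and XXM) was -0.03 ± 0.09 (edgeR adjusted p = 0.981). In the gonad effect the sensor Dhx58 and the inducible Ifih1 and Trim25 pointed the other way, at -0.36 ± 0.15, -0.29 ± 0.13 and -0.23 ± 0.09 (edgeR adjusted p = 0.299, 0.350 and 0.272).

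Tbk1 (gene ID 56480; chr10:121546456-121586794, minus strand), the kinase that phosphorylates IRF3, read 62.4, 65.8, 61.2, 62.9 and 57.0 CPM in the XXF libraries. Group means were 61.9 ± 3.21 (XXF, SD, n = 5), 60.6 ± 2.10 (XXM), 64.9 ± 2.52 (XYF) and 61.0 ± 3.53 CPM (XYM), the last 3 with n = 6. All 23 libraries lay within a 1.22-fold range, against 3.01-fold for Ddx58 and 3.04-fold for Ifih1, and the 4 groups overlapped.

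Irf3 (gene ID 54131; chr7:44997648-45002848, plus strand), the factor activated by TBK1, read 17.1, 19.3, 17.9, 20.7 and 18.3 CPM in the XXF libraries. Group means were 18.6 ± 1.40 (XXF, SD, n = 5), 16.7 ± 2.28 (XXM), 17.5 ± 2.57 (XYF) and 15.7 ± 2.46 CPM (XYM), the last 3 with n = 6, and all groups overlapped. Irf3 had its highest mean in XXF, the group where Ddx58 had its lowest. XYF and XXF differed by -0.10 ± 0.11 (edgeR adjusted p = 0.997), and 2.56% of its exon bases overlap Bcl2l12 on the opposite strand.

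**Figure D2:**
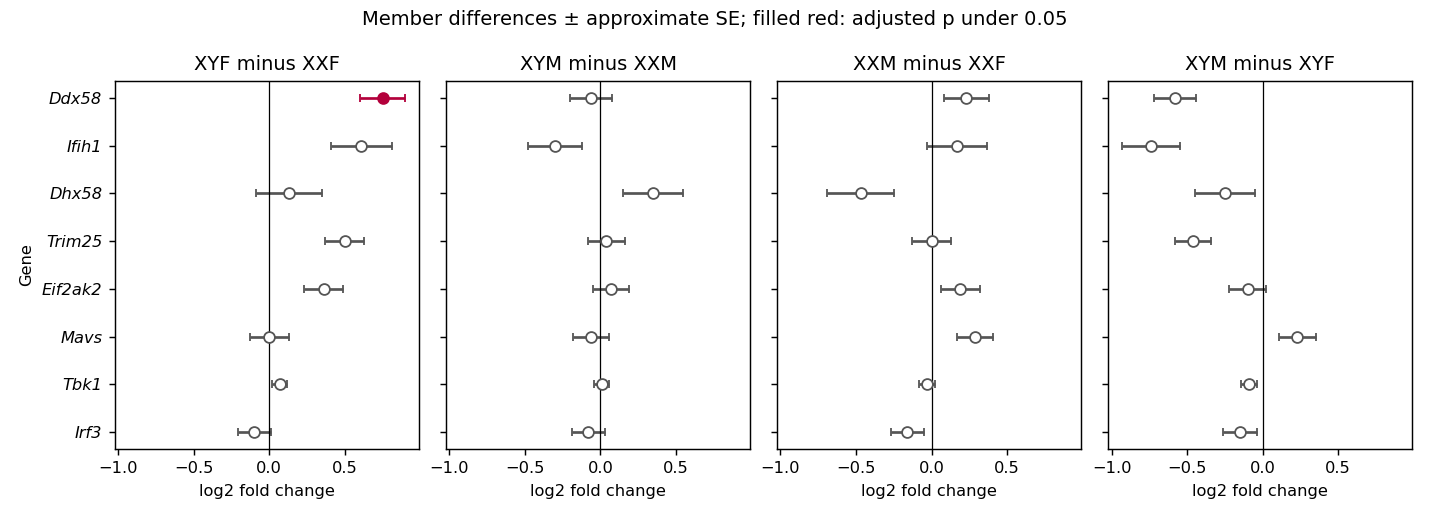
Log2 fold change ± approximate SE (horizontal axes) of the 8 genes (rows) in 4 comparisons, from the edgeR fit; a filled red point has an adjusted p under 0.05. Ddx58 in XYF minus XXF, at 0.75, is the filled point; Ddx58, Ifih1 and Trim25 lie to the right of 0 in XYF minus XXF and to the left in XYM minus XYF.

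Whether the sex chromosome difference depends on the gonad is asked by the interaction, (XYM minus XYF) minus (XXM minus XXF). It was -0.81 ± 0.20 for Ddx58, -0.91 ± 0.27 for Ifih1 and -0.46 ± 0.18 for Trim25 (approximate SE). The edgeR quasi-likelihood test called none of the 8 members and 0% of all genes (adjusted p = 0.999 for each of the 3 genes), and DESeq2 and limma voom also called 0 members. At an unadjusted p under 0.05, 3 of 8 members were reached, all 3 lower, against 2.18% of all genes lower. The other 5 genes had interaction values between -0.29 and 0.22. Without XYF replicate 4 the values were -0.82 for Ddx58, -0.89 for Ifih1, -0.38 for Trim25 and -0.36 for Eif2ak2, which then also had an unadjusted p under 0.05 (edgeR, 0.0419). Markers of the choroid plexus, the secretory tissue of the brain ventricles, had a median interaction of their own of -1.995 (range -2.42 to -1.30 over 8 genes), with none called. With their score as a covariate, the interaction was -0.60 for Ddx58 and -0.69 for Ifih1 (edgeR unadjusted p = 0.000933 and 0.00857). Trim25 was then at -0.25 and no longer reached an unadjusted p under 0.05 (edgeR, 0.103). The edgeR adjusted p was 0.959 for each of the 3. With a score of the microglia markers as the covariate instead, the 3 values were -0.80, -0.81 and -0.52. Their edgeR unadjusted p was 0.00103, 0.00947 and 0.0116, and 0 members were called.

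The remaining contrasts called no member with edgeR. For the sex chromosome effect, 3 of 8 members reached an unadjusted p under 0.05, all higher in XY, against 3.37% of all genes higher and 0.283% called: Ddx58 at 0.35 ± 0.10 (edgeR adjusted p = 0.278), Trim25 at 0.27 ± 0.09 (0.501) and Eif2ak2 at 0.21 ± 0.09 (0.627). For XYM minus XYF, 3 of 8 did, all lower, against 4.66% of all genes lower and 0.225% called; here DESeq2 called 2 members and limma voom 0. For the gonad effect, 4 of 8 did, against 13.6% of all genes and 0.160% called. For XXM minus XXF, 2 of 8 did, Dhx58 and Mavs (0.29 ± 0.12, edgeR adjusted p = 0.633), against 7.71% of all genes and 0% called, and for XYM minus XXM 0 of 8, against 5.29% and 0.116% called. In XXM minus XXF the choroid plexus markers had a median of 1.66, 8 of 8 above 0, and with their score as a covariate Mavs was 0.17 (edgeR unadjusted p = 0.172) and Dhx58 -0.62 (0.0121). With the same covariate the gonad effect of Mavs was 0.20 (edgeR adjusted p = 0.331). DESeq2 and limma voom called 0 members in these 4 contrasts other than XYM minus XYF. XYF minus XXF, XYM minus XYF, the averaged effects and the interaction share XYF libraries and are not separate support for one another.

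Library by library, most inducible genes were high together in most XYF libraries and in XYM replicate 1. Of the 5 inducible genes, 4 or 5 ranked among the 6 highest of 23 libraries in XYF replicates 2, 3, 4 and 5, 3 did in XYF replicate 6 and 1 in XYF replicate 1. Eif2ak2 ranked only 21 and 17 in XYF replicates 4 and 6, and Dhx58 17 and 16 in XYF replicates 1 and 2. In XYM replicate 1, 4 inducible genes were among the 6 highest, and no other XYM library had any. Among XX libraries, XXM replicate 3 had 2, and XXM replicate 4 and XXF replicates 3 and 5 had 1 each. XYM replicate 1 also had the highest Mavs level of all 23 libraries, 12.9 CPM, but ranked 17 for both Tbk1 and Irf3. XXF replicate 5 had the lowest Ddx58 and Ifih1 levels of all libraries yet ranked 6 for Dhx58.

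**Figure D3:**
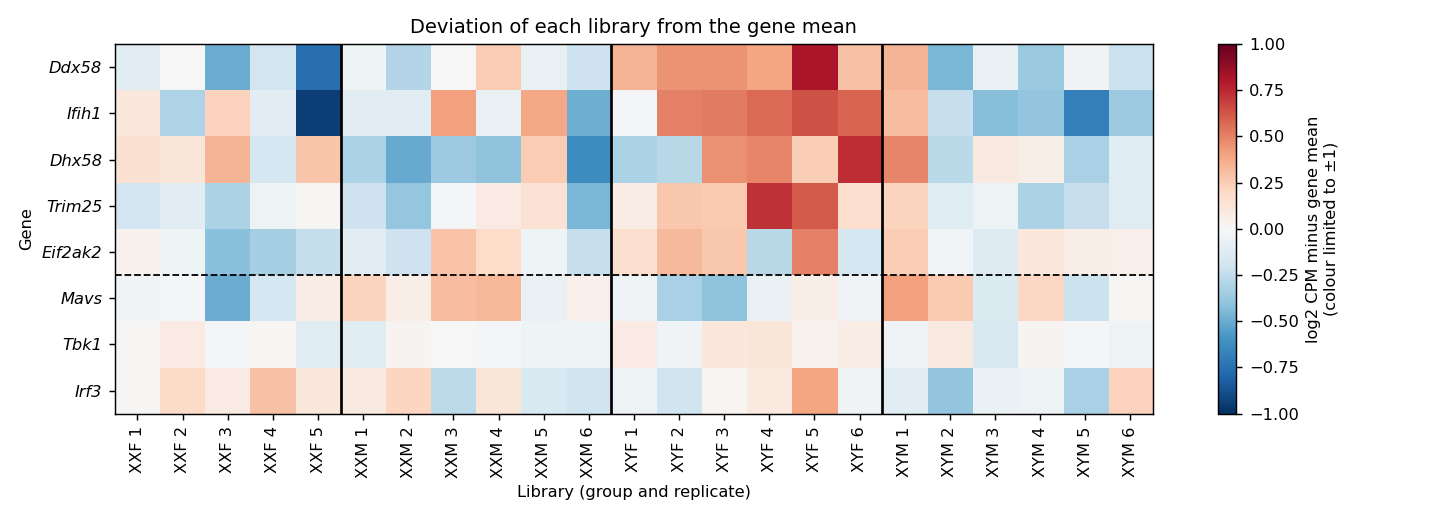
Deviation of each library from the gene's mean on the log2 CPM scale (colour, red above and blue below, limited to ±1) for the 8 genes (rows; inducible genes above the dashed line) in 23 libraries (columns, named by group and replicate). The XYF columns and XYM replicate 1 are mostly red in the inducible rows, and the Tbk1 row is pale throughout.

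Over the 23 libraries, log2 CPM of Ddx58 followed that of Trim25 (Pearson r = 0.75, 0.49 within groups), Ifih1 (0.71, 0.45 within groups) and Eif2ak2 (0.64, 0.58 within groups), and r was 0.23 for Dhx58. For Mavs and Ddx58 it was -0.05. These are descriptions over libraries that share depth and tissue composition. The 3 genes of the table with the pattern most like each member, by Pearson r over the 23 libraries, were Lgals3bp (0.88), Ifi27l1 (0.87) and Bst2 (0.86) for Ddx58, Bst2 (0.85), Cxcl16 (0.85) and Alas2 (0.83) for Ifih1, and Parp14 (0.90), Iigp1 (0.86) and Irgm2 (0.85) for Trim25. Bst2, Parp14 and Lgals3bp also stand on the list of interferon targets described next. For Dhx58 they were Tfpt (0.72), Wdr83 (0.71) and Ifitm3 (0.70), and for Eif2ak2 Pkd2 (0.75), Il1r1 (0.73) and Cd33 (0.73). Mavs was most like Npc1 (0.80), Dock5 (0.79) and Plekhh2 (0.77), Irf3 most like Dok3 (0.75), Gpt (0.75) and Smcr7 (0.74), and Tbk1 most like Mmp9 (0.68), Rnf168 (0.67) and Wdr77 (0.67).

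Genes around the members in the same pathways were then counted. Of 28 measured ligases, adaptors and kinases of RIG-I-like receptor signalling, 1 rose in XYF against XXF, where 0.262% of all genes were called higher. The list's median log2 fold change was 0.03 against 0.01 over all genes. The gene called was Irf7, the interferon-inducible partner of IRF3 that amplifies interferon production, at 1.69 ± 0.29 (edgeR adjusted p = 0.00305). Its level was 2.14 ± 0.613 CPM in XXF, 1.85 ± 0.472 in XXM, 7.07 ± 1.72 in XYF and 2.52 ± 1.42 in XYM (SD). The XXM libraries reached 2.30 CPM. The XYF libraries, 4.35 to 9.37 CPM, were all above the XXF libraries, which reached 3.15 CPM. XYF lay above XXF without overlap for 0.552% of all genes. Irf7 was also called in XYM minus XYF, at -1.45 ± 0.27 (edgeR adjusted p = 0.00853). That second call was lost with the microglia score as a covariate and in a fit of those 2 groups alone, with adjusted p up to 0.226.

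Of 25 inhibitors of the pathway, none was called in XYF against XXF (edgeR; 1 by DESeq2); 2 were at an unadjusted p under 0.05, 1 higher and 1 lower, against 5.17% of all genes in either direction. Nlrc5, a NOD-like receptor family member described both as an inhibitor here and as an activator of MHC class I genes, was called in the sex chromosome effect at 0.95 ± 0.19 (edgeR adjusted p = 0.0193), a call lost without XXF replicate 2, XXM replicate 2 or XYM replicate 1, or with a stricter filter on low counts. Of 18 measured other nucleic acid sensors, 1 rose in XYF against XXF, where 0.262% of all genes were called higher. It was Oasl2, of the oligoadenylate synthetase family, at 1.85 ± 0.25 (edgeR adjusted p = 9.69e-05), from 4.01 ± 0.774 to 14.4 ± 2.83 CPM. Oasl2 was lower in XYM than in XYF at -1.48 (edgeR adjusted p = 0.00174). This last call was lost with the microglia score as a covariate (-1.28, edgeR adjusted p = 0.0522). The related Oas2 was called in XYM minus XYF at -1.51 (edgeR adjusted p = 0.0244). That call was lost in 10 of 34 alternatives, 8 of which leave out 1 XYF or XYM library and 1 of which is the microglia covariate. Oas2 could pass the filter of the deposited table, at least 20 counts in all samples of 1 group, only through XYF, where it is high. Its contrasts with XYF are therefore partly set by the filter and are no support for a difference. Similar genes such as the Oas and Ifit families can share reads, so their values are uncertain in how reads were split between copies. Ddx3x, an X-linked helicase, was lower in XY than in XX animals at -0.28 (sex chromosome effect, edgeR adjusted p = 0.00413). Ddx60, a helicase said to help RIG-I, had 1.23 in XYF minus XXF and did not pass (edgeR adjusted p = 0.190). Of 19 genes around PKR and eIF2alpha, none was called in XYF minus XXF or XYM minus XYF by edgeR or DESeq2. At an unadjusted p under 0.05, 0 of the 19 were higher in the first, against 2.84% of all genes, and 2 were lower in the second, against 4.66%. Atf4, the factor translated when eIF2alpha is phosphorylated, differed by 0.02 in XYF minus XXF, by -0.23 ± 0.06 in XYM minus XYF (edgeR unadjusted p = 0.000952, adjusted p = 0.202) and by -0.20 ± 0.05 in the gonad effect (adjusted p = 0.0727).

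Of 22 measured genes of type I interferon signalling and its targets (24 listed, Mx1 and Ifi27 not measured), 6 rose in XYF against XXF. None fell, and 0.291% of all genes were called in this comparison, 0.262% as higher. The list's median was 0.66, with 21 of 22 above 0, against a median of 0.01 over all genes. The 6 included Usp18 (1.81), which shuts off the interferon receptor (edgeR adjusted p = 0.00396). Also among them were the antiviral effectors Ifit1 (1.61), Ifit3 (1.35), Rsad2 (1.29) and Isg15 (1.05) (edgeR adjusted p = 0.000638, 0.000227, 0.00748 and 0.0105). The receptor chains Ifnar1 and Ifnar2 and the kinases Jak1 and Tyk2 had values of -0.06, 0.10, 0.01 and 0.02. Isg15 did not overlap between XXF (1.18 to 1.78 CPM) and XYF (2.69 to 3.73 CPM), where 0.552% of all genes were higher in XYF without overlap. In XYM minus XYF, 7 of the 22 fell, with a list median of -0.63, where 0.225% of all genes were called. They were the same 6 and Rtp4, whose call was lost in 14 of 34 alternatives. Without XYF replicate 4 all 6 and all 7 of these were still called, with edgeR adjusted p of 0.0129 or less in the first comparison and 0.0490 for Rtp4 in the second. Irf7 and Oasl2 were then 1.72 and 1.85 in XYF minus XXF (edgeR adjusted p = 0.00463 and 0.000251) and -1.48 each in XYM minus XYF (0.0145 and 0.00489). In XYM minus XXM and XXM minus XXF, edgeR called none of the 22 (1 and 0 by DESeq2); 1 and 3 were at an unadjusted p under 0.05, against 5.29% and 7.71% of all genes. The list was chosen with earlier results of these data known.

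**Figure D4:**
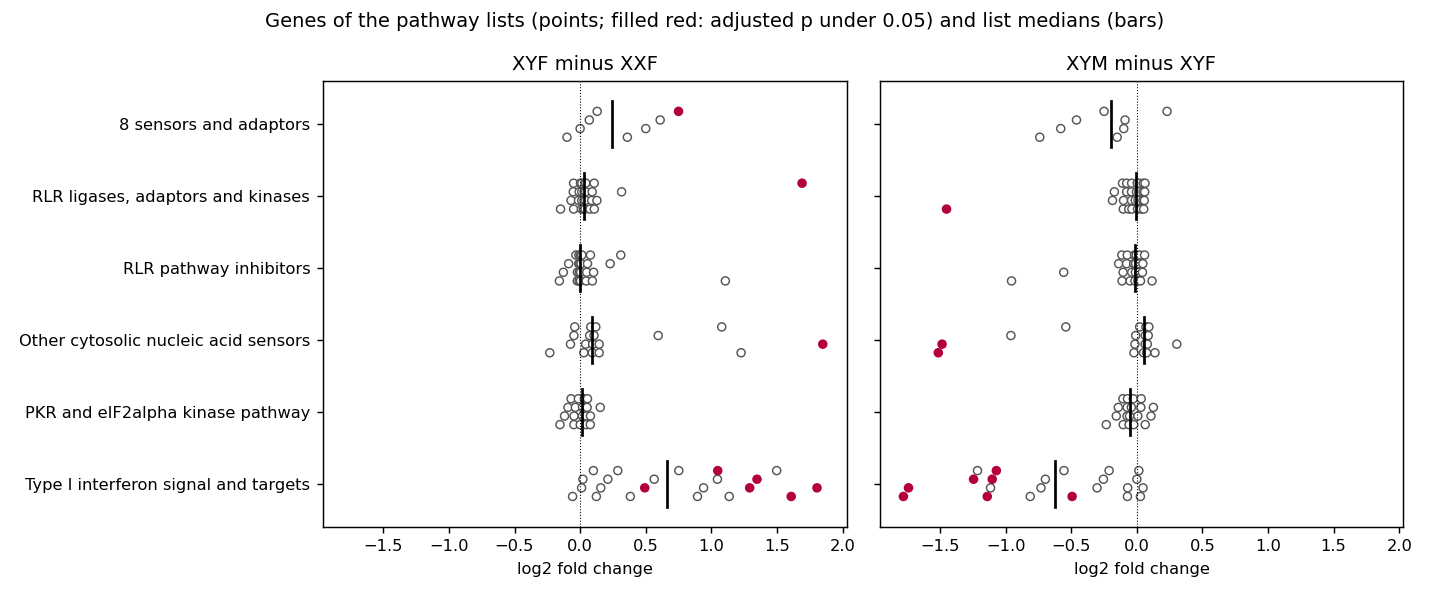
Log2 fold change (horizontal axes) of each measured gene in the member set and the 5 pathway lists (rows) for XYF minus XXF and XYM minus XYF; points are genes, filled red where the adjusted p is under 0.05, and bars are list medians. The interferon list is shifted to a median of 0.66 and -0.63, while the ligase and kinase list is centred near 0 with Irf7 far from it.

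Markers of other cells were read beside these results. In bulk tissue, fewer cells of a type and less RNA per cell cannot be told apart. The summed level of 12 microglia markers, none at 0 in any library, was 533.0 to 599.9 CPM in XXF, 514.7 to 616.5 in XXM, 557.7 to 708.5 in XYF and 513.4 to 638.1 in XYM. Their median log2 fold change was 0.13 in XYF minus XXF, 11 of 12 above 0, and -0.24 in XYM minus XYF, 2 of 12 above 0. None was called by edgeR; at an unadjusted p under 0.05, 4 of 12 were higher in the first, against 2.84% of all genes, and 7 of 12 lower in the second, against 4.66%. With the microglia score as a covariate, Ddx58 in XYF minus XXF was 0.75 (edgeR adjusted p = 0.0437). In XYM minus XYF the same covariate took the calls over all genes from 31 to 6 and those of the interferon list from 7 to 3. Isg15 and Ifit1 were among those still called there, at -1.24 and -1.60, against -1.24 and -1.74 without the covariate. Ifit3, Rsad2, Usp18 and Rtp4 were not, at -0.90, -1.08, -1.58 and -1.04 against -1.07, -1.14, -1.78 and -1.10.

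Of 11 leukocyte markers, 2 were measured, Ptprc and Lyz2. Their sum had a lowest, median and highest value of 12.3, 16.5 and 18.9 CPM in XXF, 14.1, 15.2 and 29.2 in XXM, 12.5, 20.3 and 24.9 in XYF, and 10.8, 12.4 and 20.3 in XYM. The pair pointed the same way as Ddx58 and Ifih1: both were above 0 in XYF minus XXF, with a median of 0.33 and 1 at an unadjusted p under 0.05, and both were lower in XYM minus XYF, with a median of -0.50 and both at an unadjusted p under 0.05. Neither was called by edgeR, and their part in the results was not tested.

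Choroid plexus markers, 8 of 10 measured, differed widely between libraries within each group, and their median was highest in XXM. Their sum had a lowest, median and highest value of 288.0, 375.4 and 3270 CPM in XXF, 393.7, 3639 and 4684 in XXM, 303.3, 333.0 and 5779 in XYF, and 309.9, 394.9 and 4595 in XYM. The list's median log2 fold change was 0.47 in XYF minus XXF, with 8 of 8 above 0, and -1.54 in XYM minus XXM, with 0 of 8 above 0; none was called by edgeR in any contrast. With their score as a covariate, Ddx58 and Trim25 were both called in XYF minus XXF, at 0.74 and 0.48 (edgeR adjusted p = 0.000393 and 0.0256).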

How the data were processed

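RNA from 23 hippocampi, 1 library per animal, was sequenced after rRNA depletion with a strand-specific kit, per the labels' protocols. The authors deposited 1 table with estimated counts per gene, not normalized, and log2 normalized values; per the file headers it was filtered to genes with at least 20 raw counts in 100% of the samples of at least 1 group. The submitters' processing notes name mm10 and DESeq; the aligner, the counting program and its strand setting were not given in the sources used here.

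Estimated counts were rounded and fitted with edgeR 4.0.16 (R 4.3.3; TMM, filterByExpr, which removed 0 genes, 4 group means, quasi-likelihood test, two-sided), with Benjamini-Hochberg adjustment over 13766 genes and a threshold of 0.05. An approximate SE was taken as |log2 fold change| divided by √F. CPM used TMM library sizes; log2 CPM, used for exact permutation tests and correlations, had a prior count of 2. Exon lengths came from GENCODE. The scripts were tested on simulated data. Alternatives were other scalings, DESeq2 1.42.0, limma 3.58.1 (voom, and the deposited log2 values), other filters, marker scores as covariates, the 2 groups alone and each library left out.

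Named genes were all 8 members, each pathway gene called (1 of the interferon list is not reported here), up to 2 others per list with the largest change, and 3 most similar genes per member; Xist, Ddx3y, Msl3 and Tlr7 describe the groups. The interferon receptor and kinase genes and the markers named were read from their lists. Members and lists were chosen with earlier results of these data known.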

Additional observations from a re-analysis of the deposited data

Results flagged for a closer look

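Of 32 gene-by-group sets tested with Dixon's ratio (the gap of the end value to its nearest neighbour over the range), 4 held a library far from the rest; chance flags about 1 in 20 such groups. Ddx58 in XYF replicate 5 was the highest of 6 at 14.05 CPM, with the next at 10.9 CPM (ratio 0.734). Ifih1 in XYF replicate 1 was the lowest of 6 at 5.43 CPM, with the next at 7.81 CPM (ratio 0.756). Ifih1 in XYM replicate 1 was the highest of 6 at 6.83 CPM, with the next at 4.67 CPM (ratio 0.628). Dhx58 in XXM replicate 5 was the highest of 6 at 2.06 CPM, with the next at 1.36 CPM (ratio 0.715).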

How the results depend on the processing

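Of 1928 member values under alternatives, 1900 kept their side of the threshold, 26 came under it (15 of them in the exact permutation test of a single gene, whose p is not adjusted) and 2 lost a call, both Ddx58 in XYF minus XXF; 41 had another sign, all of them values that were not called. The permutation test planned for the interaction was left out, because exchanging labels within the other factor does not test an interaction. With 1 member called in XYF minus XXF, a choroid plexus covariate gave 2 and leaving out 1 library 0 to 1, with 0 without XXF replicate 3 or XXF replicate 5. With 0 called in XYM minus XYF, DESeq2 gave 2, voom with sample quality weights 1, the choroid plexus covariate 3 and leaving out 1 library 0 to 2, with 2 without XYM replicate 1. With 0 in the sex chromosome effect, the choroid plexus covariate gave 2, Ddx58 and Trim25. The cause was not tested.

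Over all genes, the 22 calls of the gonad effect became 98 with DESeq2, 76 with quality weights, 42 with the choroid plexus covariate, 14 with the microglia covariate and 17 to 85 with 1 library left out. The 39 of the sex chromosome effect became 60, 68 and 62 under the first 3. The 31 of XYM minus XYF became 47 with DESeq2, 6 with the microglia covariate, 15 with the 2 groups alone and 19 to 50 with 1 library left out. In the interaction, 0 became up to 3 with 1 library left out, and in XXM minus XXF 0 became 1 with DESeq2. The 6 interferon genes called in XYF minus XXF were 5 to 10 under alternatives and 5 to 9 with 1 library left out; the 7 in XYM minus XYF were 3 to 11 and 5 to 12, with 12 without XYM replicate 1.

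Dhx58, with 19.4 to 72.8 counts in a library, is the member whose precision depth limits most. No paired analysis was possible because the labels give no replicate numbers that groups share.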
